A study of Mus musculus with 9 samples.

Results

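The GIMAP GTPases, guanine nucleotide-binding proteins of the immunity-associated family, were followed across 3 groups of 3 mouse arrays from a study of NOTCH1 excess in T cell leukemia and in abnormal but non-malignant cells. The family was taken as Gimap1, Gimap3, Gimap4, Gimap5, Gimap6, Gimap7, Gimap8 and Gimap9, and its members were the probe sets to which the platform annotation gives exactly 1 gene symbol, that of a family gene. This gave 11 probe sets of 45101 in the table, for 8 genes of 18162, with 2 probe sets each for Gimap4, Gimap6 and Gimap7. The groups are called Control, Abnormal non-malignant and NIC Tumor. RNA came from sorted cells in all 3 groups. The labels used here give neither the sorted population nor strain, age, genotype or allele, do not spell out NIC, and leave unstated whether each sample is a separate animal. The p-values therefore measure the spread between these arrays, which may be technical.

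GIMAP proteins are small GTPases anchored at intracellular membranes and expressed mainly in lymphocytes, where they regulate survival. In mouse thymus several of them are switched on as thymocytes are selected into mature T cells, and loss of Gimap5 or Gimap1 depletes mature T cells. The genes lie side by side in 1 cluster on mouse chromosome 6, in the order Gimap8, Gimap9, Gimap4, Gimap6, Gimap7, Gimap1, Gimap5 and Gimap3 in RefSeq's GRCm38.p6 annotation.

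The promoters of 3 members are shown because these genes differed most between groups: Gimap4 and Gimap7 stood higher in tumors than in controls, and Gimap8 lower. Each run holds the 250 bases before the transcript start, from RefSeq (GRCm38.p6, plus strand, printed 5′ to 3′), at chr6:48684328-48684577 for Gimap4, chr6:48718371-48718620 for Gimap7 and chr6:48646984-48647233 for the first of the Gimap8 starts in that table. Capitals mark matches on either strand to the core motifs TGGGAA (RBPJ, the DNA-binding partner of NOTCH), CACCC (KLF factors), TGTGGT (RUNX factors) and AGGAAG (ETS factors); no marked stretch in these 3 promoters belongs to more than 1 motif.
Gimap4: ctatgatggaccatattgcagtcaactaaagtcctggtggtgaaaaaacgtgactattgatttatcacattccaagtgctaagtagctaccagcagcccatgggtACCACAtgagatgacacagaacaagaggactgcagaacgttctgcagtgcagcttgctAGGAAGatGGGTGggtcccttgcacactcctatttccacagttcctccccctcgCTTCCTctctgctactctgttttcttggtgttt
Gimap7: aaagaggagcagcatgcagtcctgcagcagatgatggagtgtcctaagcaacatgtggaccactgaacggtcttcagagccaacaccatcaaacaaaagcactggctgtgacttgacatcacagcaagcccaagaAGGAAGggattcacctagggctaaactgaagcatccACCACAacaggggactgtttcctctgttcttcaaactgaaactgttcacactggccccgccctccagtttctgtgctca
Gimap8: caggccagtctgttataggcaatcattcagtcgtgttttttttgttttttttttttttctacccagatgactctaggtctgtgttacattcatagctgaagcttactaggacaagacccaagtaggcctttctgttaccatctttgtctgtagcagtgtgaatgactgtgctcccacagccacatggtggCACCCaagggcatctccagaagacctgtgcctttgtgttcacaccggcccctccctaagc
All 8 genes had a promoter in the table, 9 promoters in all, searched from 250 bases before to 50 after the start. The ETS core was found in 7 of the 9, against 35.4% of all 32851 promoters, and the KLF core in 6, against 57.5%. The 2 Gimap8 promoters overlap and share a KLF match, so that by gene the KLF core was in 5 of the 8 members. The Gimap8 promoter that is not printed also holds an ETS match. The RUNX core was found in 3 of the 9 promoters, those of Gimap1, Gimap4 and Gimap7, against 16.8% of all. The RBPJ core was found in 1 of the 9, that of Gimap3, against 25.6% of all. These are letter matches in a fixed window and are given as a description.

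Levels are log2 probe set values as deposited, and each gene is read from its probe set with the highest mean over the 9 arrays. The array medians lay between 5.67 and 5.77, and each of the 11 family probe sets exceeded the 40th percentile of its array (5.14 to 5.3) on all 9 arrays, so every member passed the filter on dim probe sets. No pair was as alike as abnormal non-malignant arrays 2 and 3, whose gene differences had an SD of 0.16, against 0.3 for the next pair. Calls that involve this group were therefore also made with these 2 arrays averaged and counted as 1 sample. Of the calls given here, those that this ended are named. By the same measure tumor array 1 was more like the non-malignant arrays (0.46 to 0.47) than like the other tumors (0.63 and 0.79). The Y-linked gene Eif2s3y was at 8.69 on control array 2 and at 4.18 or below on the remaining 8 arrays. By this gene the controls were not all of 1 sex, and so not all from 1 animal. The fit took no account of sex. The T lineage was plain on every array: the CD3 chains Cd3d, Cd3e and Cd3g had group means between 11.83 and 13.01.

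Compared with controls, the abnormal non-malignant samples differed by test in a pair of members. Gimap4 and Gimap5 rose, and the means of the other 6 members were higher without passing the test, for Gimap6 on 1 of its 2 probe sets. By limma, 2 of 8 members were called higher at an adjusted p under 0.05, beside 2.87% of the 13289 genes tested, and 0 were called lower, beside 0.655% (7 higher and 0 lower at an unadjusted p under 0.05). The median difference over the family was 0.81 on the log2 scale, beside 0.01 over all genes. In 7 of 8 members every non-malignant array lay above every control, beside 17% of all genes, and in 0 of 8 every one lay below, beside 9.16%.

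**Figure D1:**
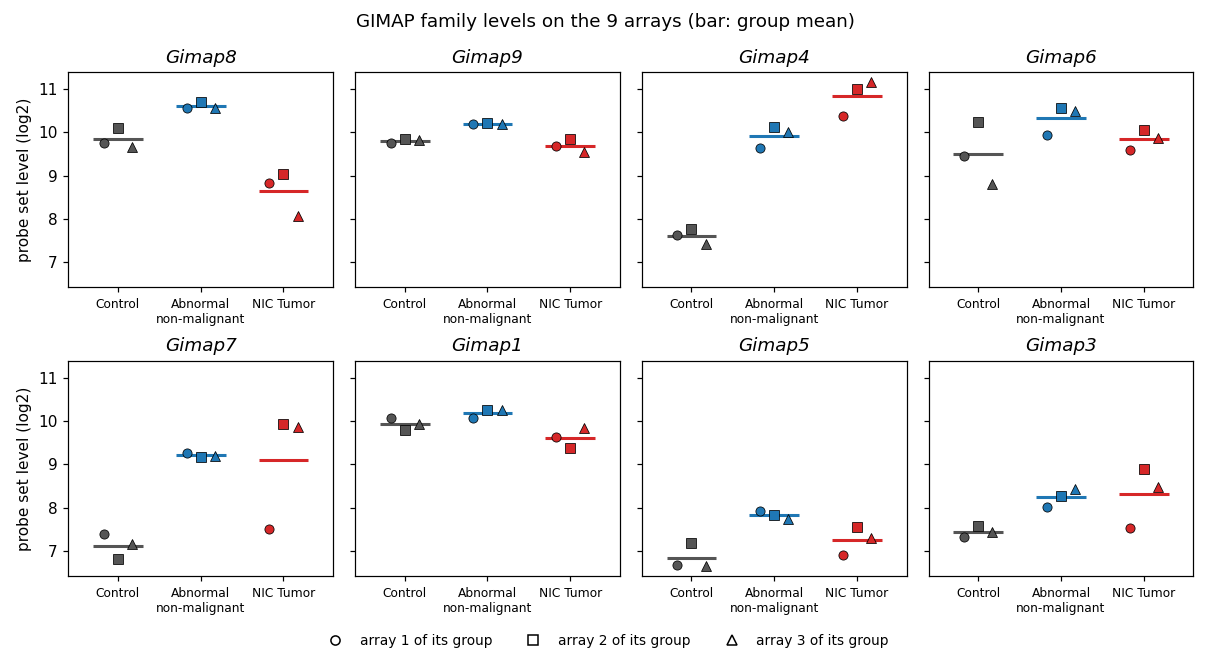
Level of each family member (log2, vertical axis) on the 9 arrays by group, with a symbol for the array number and a bar at the group mean. Gimap4 separates all 3 groups, Gimap8 is highest in the non-malignant samples and lowest in tumors, and Gimap7 and Gimap3 on tumor array 1 lie near the controls.

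Gimap4, which in mouse promotes the death of T cells, changed most. Its level was 7.62, 7.78 and 7.43 on control arrays 1, 2 and 3, and 9.64, 10.13 and 10 on the non-malignant arrays. The groups lay more than 1 log2 unit apart at their nearest arrays. The difference of 2.31 ± 0.24 (SE), 4.96-fold, passed (limma, adjusted p = 0.000649) and passed again with non-malignant arrays 2 and 3 averaged (2.24, adjusted p = 0.00697). The second Gimap4 probe set, tested among all 28160 probe sets above the filter, gave 2.02 (limma, adjusted p = 0.00599). The probe set that gives the Gimap4 level is of the kind whose probes can match several transcripts; this second one is not, and the 2 followed each other over the 9 arrays.

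Gimap5, whose loss in rat and mouse causes a shortage of T cells, was at 6.69, 7.19 and 6.65 in controls and at 7.93, 7.84 and 7.73 in the non-malignant samples. No array of one group reached the other. The difference of 0.98 ± 0.21 (SE), 1.98-fold, passed narrowly (limma, adjusted p = 0.0322), and not with non-malignant arrays 2 and 3 averaged (1.01, adjusted p = 0.131). Leaving out control 1, control 3 or any 1 non-malignant array also ended its call, at differences of 0.89 to 1.16 over the 9 fits.

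Gimap3, the mouse paralog next to Gimap5, was at 7.32, 7.57 and 7.45 in controls and at 8.02, 8.27 and 8.44 in the non-malignant samples. The groups were apart on every array, while the difference of 0.8 ± 0.31 (SE) missed the threshold (limma, adjusted p = 0.274). Gimap3 and Gimap5 are related genes, and how far their probe sets respond to each other's transcript was not tested.

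Gimap7, a GTPase that in human forms dimers with other family members, was at 7.39, 6.81 and 7.16 in controls and at 9.27, 9.18 and 9.19 in the non-malignant samples. The difference of 2.09 ± 0.55 (SE), 4.26-fold, was nearly as large as that of Gimap4, with its groups as clearly apart, and did not pass (limma, adjusted p = 0.0799). The fit of all 3 groups uses a spread that includes the tumors, where the SD of Gimap7 was 1.38, against 0.295 in controls and 0.0491 in the non-malignant samples. It was called in 3 of 20 alternative settings, among them only these 2 groups in the fit (adjusted p = 0.000326) and no tumor array 1 (0.000245), and missed in the others, with an adjusted p of 0.253 with non-malignant arrays 2 and 3 averaged and of up to 0.264 with 1 array left out. Its second probe set, dimmer by the group means (5.52 in controls and 5.82 in the non-malignant samples), gave 0.3 (limma over probe sets, adjusted p = 0.545).

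Gimap8, a larger member with several GTP-binding domains, was at 9.75, 10.1 and 9.67 in controls and at 10.57, 10.69 and 10.56 in the non-malignant samples. Every non-malignant array was higher, by a mean difference of 0.77 ± 0.25 (SE) that did not pass (limma, adjusted p = 0.171). Gimap9 was tightly spread, at 9.76 to 9.85 in controls and 10.19 to 10.21 in the non-malignant samples, and its difference of 0.39 did not pass either (adjusted p = 0.228). Gimap1, which mature T and B cells need to survive in mouse, differed least, at 9.93 ± 0.14 (SD, n = 3) in controls and 10.2 ± 0.11 in the non-malignant samples (limma, adjusted p = 0.609; 95% interval of the difference −0.1 to 0.65).

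Gimap6, which binds an Atg8-type autophagy protein, varied most among the controls, at 9.45, 10.25 and 8.8. The non-malignant arrays, at 9.93, 10.56 and 10.5, overlapped with them, and the difference of 0.83 did not pass (limma, adjusted p = 0.311). The second Gimap6 probe set had the opposite sign, −0.35 (limma over probe sets, adjusted p = 0.899), so that no direction is given for this gene against controls.

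Compared with controls, the NIC tumors had members on both sides. Gimap4 and Gimap7 rose and Gimap8 fell. The call rule picked 2 of 8 members as higher, beside 8.49% of all genes tested, and 1 as lower, beside 7.19%. The median difference over the family was 0.37, beside 0.06 over all genes. Groups did not overlap for Gimap4 and Gimap7 among those higher, 2 of 8 beside 18.2% of all genes, and for Gimap8 among those lower, 1 of 8 beside 14.3%. This comparison and the previous one share the control samples. The fit takes 1 spread for all groups, while the tumors varied most (root mean square SD 0.49, against 0.27 in controls and 0.23 in the non-malignant samples). Its p-values can thus be too small for tumors and too large between the other groups. Counts from fits of the compared pair alone are given in the last section.

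Gimap4 was at 10.37, 11 and 11.17 on tumor arrays 1, 2 and 3, each above every control and every non-malignant array. The difference from controls was 3.24 ± 0.24 (SE), 9.42-fold (limma, adjusted p = 0.000138), and its second probe set gave 2.84 (limma over probe sets, adjusted p = 0.000967). It was called in all 9 fits with 1 array left out, at 3.08 to 3.47.

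Gimap8 was at 8.83, 9.03 and 8.07 in the tumors, each below every control. It fell by 1.2 on the log2 scale (SE 0.25, 2.29-fold; limma, adjusted p = 0.0132). The call ended without control 2, where the difference was −1.07 (adjusted p = 0.0537), and stood in the other 8 fits with 1 array left out. It also ended with only the 2 groups compared in the fit (limma, adjusted p = 0.0537).

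Gimap7 split the tumors. Its level was 7.5 on tumor array 1, next to the highest control at 7.39, and 9.93 and 9.86 on tumor arrays 2 and 3. The mean difference of 1.97 ± 0.55 (SE) passed (limma, adjusted p = 0.0379), but the call stood only without tumor 1, at 2.77 (adjusted p = 9.36e-05), and ended without any 1 of the other 8 arrays, at 1.56 to 2.11, and with non-malignant arrays 2 and 3 averaged (adjusted p = 0.0624). The second Gimap7 probe set gave 5.73, 6.11 and 6.33 on the same tumor arrays, and its difference of 0.54 did not pass (limma over probe sets, adjusted p = 0.0684).

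Gimap3 was distributed in the same way, at 7.53 on tumor array 1 and 8.9 and 8.49 on arrays 2 and 3, so that its difference of 0.86 did not pass (limma, adjusted p = 0.0899), while without tumor 1 it was 1.25 (adjusted p = 0.00248). Tumor array 1 minus the mean of tumor arrays 2 and 3 was −2.4 for Gimap7, −1.17 for Gimap3, −0.71 for Gimap4, −0.52 for Gimap5 and −0.36 for Gimap6. The same quantity was −0.01 for Gimap9, 0.03 for Gimap1 and 0.28 for Gimap8. By these probe sets tumor 1 was lower in 5 members by more than 0.3 and close or higher in the other 3. For Gimap6 this held on 1 of its 2 probe sets, the second being highest on tumor array 1 (8.14, 7.95 and 7.21). On the same arrays Notch1 stood at 12.92, 9 and 10.81, highest on tumor array 1, and Myc at 8.81, 9.72 and 9.93, lowest on it. Notch1 was at 9.81 to 10.34 in controls and 12.87 to 12.97 in the non-malignant samples, so tumor 2 lay below every control. Myc was at 6.9 to 7.43 in controls and 8.1 to 8.34 in the non-malignant samples. With 3 tumors, no relation between these genes was tested.

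Gimap5 was at 6.91, 7.55 and 7.31 in the tumors, between the control and the non-malignant means, with a difference from controls of 0.41 (limma, adjusted p = 0.21; 95% interval −0.06 to 0.88). Gimap6 differed by 0.34 (adjusted p = 0.514) on the probe set that gives its level and by −0.93 on the other. Gimap1 (−0.32, adjusted p = 0.223) and Gimap9 (−0.12, adjusted p = 0.592) stood slightly below controls without passing, with 95% intervals of −0.69 to 0.06 and −0.43 to 0.2.

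**Figure D2:**
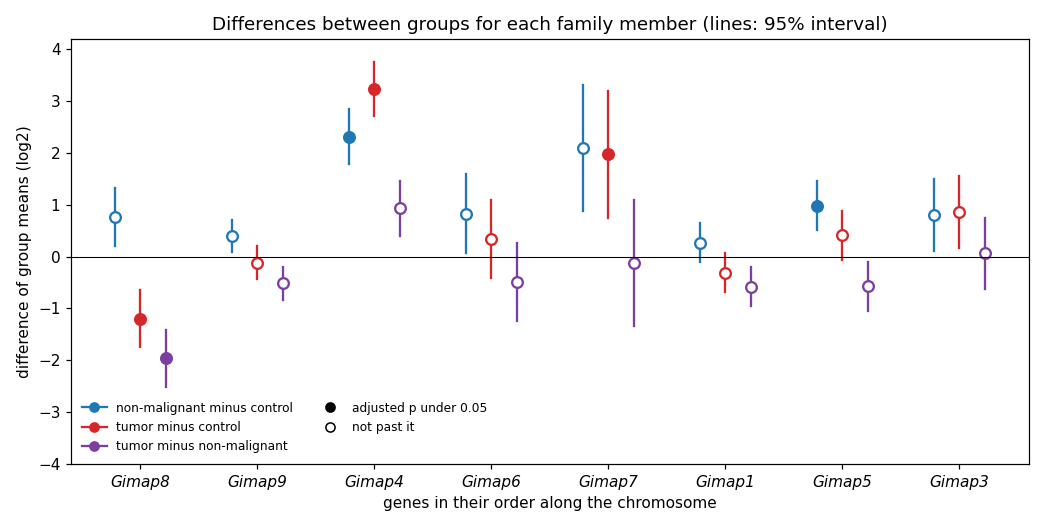
Difference between group means (log2, vertical axis) for each family member in chromosomal order, with its 95% interval from the limma fit and a filled point where the adjusted p was under 0.05. Gimap8 and Gimap4, 2 places apart in the cluster, lie at opposite ends in tumors minus controls, at −1.2 and 3.24.

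Set directly against the abnormal non-malignant samples, the tumors differed by test in Gimap8 alone. It was 3.9-fold lower (log2 difference −1.96 ± 0.25 SE; limma, adjusted p = 0.00491), with 10.57, 10.69 and 10.56 in the non-malignant samples against 8.83, 9.03 and 8.07 in the tumors. With non-malignant arrays 2 and 3 averaged it kept the call (−1.96, adjusted p = 0.0417), and it was called in all 9 fits with 1 array left out, at −2.16 to −1.68. Of the 8 members 1 was thus called lower, beside 2.7% of all genes, and 0 higher, beside 1.53% (at an unadjusted p under 0.05, 4 were lower and 1 higher by limma). Every tumor array lay below every non-malignant array for Gimap1, Gimap5, Gimap8 and Gimap9, 4 of 8 members beside 14.8% of all genes, and above them for Gimap4 alone, beside 12.3%.

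Gimap4 was higher in tumors than in the non-malignant samples by 0.93 ± 0.24 (SE) and just missed the threshold (limma, adjusted p = 0.0587; 95% interval 0.4 to 1.45). Without tumor array 1 the difference was 1.16 (adjusted p = 0.00542). Gimap9 (−0.51, adjusted p = 0.0704), Gimap1 (−0.59, adjusted p = 0.077) and Gimap5 (−0.57, adjusted p = 0.132) were lower without passing. So was Gimap6, by −0.49 (limma, adjusted p = 0.371) and on its second probe set by −0.57 (limma over probe sets, adjusted p = 0.496). For Gimap3 (0.06) and Gimap7 (−0.12) the means were close, but their 95% intervals, −0.63 to 0.75 and −1.34 to 1.1, are wide, and tumor 1 lay below the non-malignant samples while the other 2 tumors were above them. Without tumor 1 the sign of Gimap7 turned to 0.68 (adjusted p = 0.0343).

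**Figure D3:**
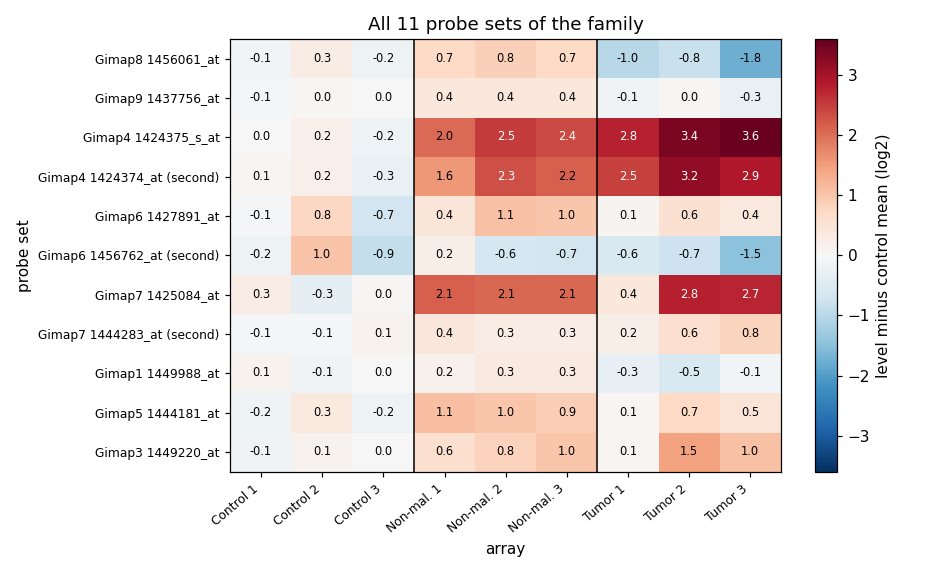
Level of all 11 family probe sets minus the control mean (log2, colour and printed value) on each array, genes in chromosomal order from top to bottom. Both Gimap4 probe sets are raised on all 6 non-malignant and tumor arrays, and tumor 1 differs from tumors 2 and 3 for Gimap7 and Gimap3. The 2 Gimap6 probe sets go different ways against controls by their group means.

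Gimap4 and Gimap8 were also read against each other within each array, where a shift of the whole array cancels. The log2 value of Gimap4 minus that of Gimap8 was −2.32 to −2.13 in controls, −0.93 to −0.56 in the non-malignant samples and 1.54 to 3.1 in the tumors. The change was 1.54 from controls to the non-malignant samples, 2.89 from there to the tumors, and 4.43 from controls to tumors. The pair was chosen because the members lay at opposite ends in tumors, so these values are a description. Only the changes of this quantity carry meaning, because the 2 probe sets need not have the same response.

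By the order of their group means, Gimap4 was lowest in controls and highest in tumors, with the step from the non-malignant samples to tumors not past the test. Gimap1, Gimap8 and Gimap9 had their highest mean in the non-malignant samples and their lowest in tumors, and of these steps only those of Gimap8 into the tumors passed. Gimap5 was highest in the non-malignant samples with tumors in between, and Gimap3 and Gimap7 had nearly equal means in the non-malignant samples and the tumors. In bulk samples, more RNA per cell and more cells that express a gene cannot be told apart.

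Genes just outside the cluster served as its neighbourhood. Of the 5 nearest protein-coding genes on either side, 8 had a probe set of their own and 7 were tested. Of these 7, 1 rose in the non-malignant samples (14.3%, beside 2.87% of all genes) and 1 in tumors (14.3%, beside 8.49%). Repin1, a zinc finger gene on the Gimap8 side, rose in the non-malignant samples (1.31; limma, adjusted p = 0.0256) and in tumors (1.26; adjusted p = 0.0138). The first of these calls ended without control 1, control 2, non-malignant 2 or non-malignant 3, at 1.07 to 1.56, and with arrays 2 and 3 averaged (1.24, adjusted p = 0.134). The other 6, among them Tmem176b (−0.89, adjusted p = 0.0865) and Tmem176a (−0.38, adjusted p = 0.415) on the Gimap3 side, were not called in the non-malignant samples or in tumors.

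Genes of mature T cells and of exit from the thymus were counted because GIMAP genes are known to be switched on along with them. Of 13 tested, 4 rose (30.8%, beside 2.87% of all genes) and 0 fell in the non-malignant samples (median 0.95). The integrin chain Itgb7 (1.89; limma, adjusted p = 0.00107), Klf2, a factor that controls T cell trafficking (2.76; adjusted p = 0.00333), and S1pr1, the receptor that guides T cells out of the thymus (2.09; adjusted p = 0.00802), had the smallest p, and the last lost its call without non-malignant array 2 or 3 and with both averaged (1.94, adjusted p = 0.0528). The fourth, the transcription factor gene Foxo1 (1.55; adjusted p = 0.0433), was called in 2 of 9 fits with 1 array left out, those without tumor 1 or tumor 3, and not with the 2 arrays averaged (adjusted p = 0.139). The count of 4 was thus 2 without non-malignant 2, without non-malignant 3 or with both averaged, and 3 to 5 without any other array. In the tumors 3 of 13 rose (23.1%, beside 8.49% of all genes) and 1 fell (7.69%, beside 7.19%; median 0.17): S1pr1 (2.84; adjusted p = 0.00127), Klf2 (2.71; adjusted p = 0.00259) and Itgb7 were higher and the surface receptor gene Cd6 was lower (−0.93; adjusted p = 0.0105), with 2 lower without tumor 1 or tumor 3. Between tumors and non-malignant samples 0 rose and 1 fell, Tespa1 (−0.73; adjusted p = 0.0434), a call that stood in only 1 of 9 fits with 1 array left out, the one without tumor 1, and not with non-malignant arrays 2 and 3 averaged (adjusted p = 0.174).

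**Figure D4:**
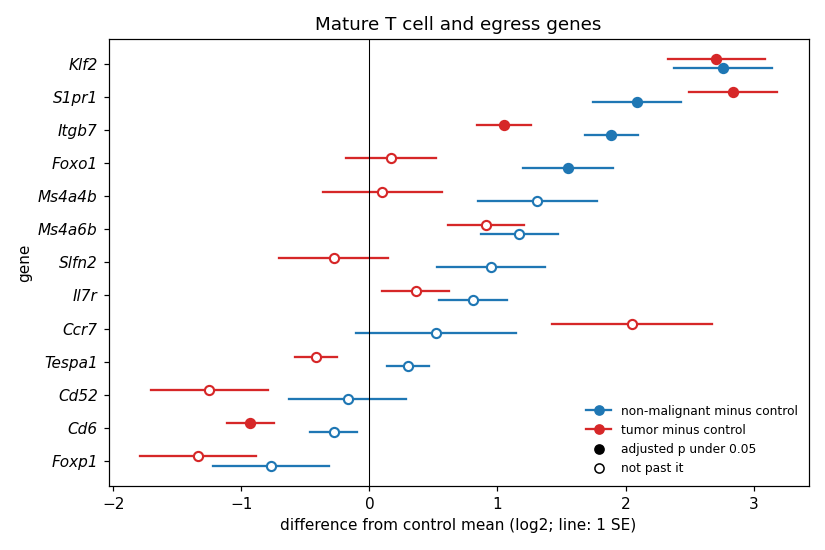
Difference from the control mean (log2, horizontal axis, line: 1 SE) of the 13 mature T cell and egress genes in the non-malignant samples and the tumors, filled where the adjusted p was under 0.05. Klf2 and S1pr1 stand above 2 in both groups, and Foxp1, Cd6 and Cd52 below 0 in both.

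Thymocyte and T cell identity genes were counted in the same way. In the non-malignant samples 1 of 13 tested rose (7.69%, beside 2.87%), the adhesion receptor gene Cd2 (1.42; limma, adjusted p = 0.00719), and 0 fell. The pre-TCR chain gene Ptcra was 3.27 higher there without passing (adjusted p = 0.0557). In the tumors 0 rose (1 higher at an unadjusted p under 0.05) and 7 fell (53.8%, beside 7.19% of all genes), with the recombinase gene Rag2 (−3.27; adjusted p = 0.000742), the receptor chain gene Cd247 (−2.09; adjusted p = 0.00489) and Cd5 (−1.73; adjusted p = 0.0102) having the smallest p. The count of 7 was 4 without any 1 control, where Thy1, Cd4 and Cd8b1 lost their calls, and 11 without tumor 1. Over all genes, the calls in this comparison ran from 928 to 4119 with 1 array left out, against 2084 in the main fit. The list had a median of −0.34 in the non-malignant samples and of −1.42 in tumors. In tumors against non-malignant samples 0 rose and 4 fell (30.8%, beside 2.7% of all genes), Rag2, Cd247, Ptcra and Rag1. With non-malignant arrays 2 and 3 averaged, Rag2 kept its call (limma, adjusted p = 0.0282) and the others lost theirs (adjusted p of 0.133 to 0.169).

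Some Bcl2 family and autophagy genes encode reported partners of GIMAP proteins, and the lists counted here are wider than those partners. Gimap3, Gimap4 and Gimap5 have been reported to bind some Bcl2 family proteins in mouse, not each of those listed. Bax and Bcl2a1a had no probe set of their own. Of 9 tested Bcl2 family genes, 0 were called in the non-malignant samples by limma (2 higher at an unadjusted p under 0.05) and 2 fell in tumors (22.2%, beside 7.19%). These were the survival genes Bcl2l1 (−2.01; adjusted p = 0.00654) and Mcl1 (−0.96; adjusted p = 0.0209), the latter without its call when any 1 control or tumor 2 was left out, at −1.22 to −0.74. In tumors against non-malignant samples 1 of the 9 fell (11.1%, beside 2.7% of all genes), Pmaip1 (−2), which was below the 40th percentile on every tumor array. Its call ended with non-malignant arrays 2 and 3 averaged (limma, adjusted p = 0.133). Of 14 autophagy genes, 0 were called in the non-malignant samples by limma (0 before adjustment too, at p under 0.05) and 1 fell in tumors (7.14%, beside 7.19% of all genes), Atg12 (−1.35; adjusted p = 0.0181), whose call ended without any 1 control or tumor 2, at −1.74 to −1.06. Without tumor 1, 4 of the Bcl2 family genes and 5 of the autophagy genes fell, and 1 autophagy gene rose. Calls over all genes in tumors against controls also moved, from 928 to 4119 with 1 array left out, against 2084 in the main fit. Gabarapl2, the Atg8-type partner of Gimap6, differed by 0.04 in the non-malignant samples and by −0.22 in tumors, with neither called (adjusted p = 0.992 and 0.611).

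Markers of other lymphoid and myeloid cells that express GIMAP genes or could lie within a sort were followed beside the family, and their part in the family's levels was not tested. Of 6 NK cell genes tested, 3 rose in the non-malignant samples (50%, beside 2.87% of all genes), Prf1 (3.8), Nkg7 (1.3) and Gzma (3.45). Gzma lost its call without any 1 control, non-malignant 2 or non-malignant 3, and with these 2 non-malignant arrays averaged (3.32; limma, adjusted p = 0.1). In tumors 2 of the 6 rose (33.3%, beside 8.49% of all genes), Prf1 (2.28; limma, adjusted p = 0.00357) and Gzma (2.66, adjusted p = 0.0253), the latter not without any 1 control or tumor 3. In tumors against non-malignant samples 2 of the 6 fell (33.3%, beside 2.7% of all genes), Nkg7 (−1.64) and Prf1 (−1.52). Prf1 lost this call with non-malignant arrays 2 and 3 averaged (limma, adjusted p = 0.156). The log2 of the summed level of 7 measured NK genes was 9.9 to 9.93 in controls, 12.48 to 13.19 in the non-malignant samples and 10.61 to 13.03 in tumors, and this sum followed Gzma, which was at 12.92, 9.96 and 12.82 on tumor arrays 1, 2 and 3. Prf1 was at 8.55, 8.2 and 7.08 on the same arrays, where Gimap4 was at 10.37, 11 and 11.17. Ncr1, a defining NK receptor, had group means of 5.5 to 5.54, near the 40th percentile of the array, and Klrd1 lay below it on all 9 arrays. Of 7 B cell genes 1 rose in the non-malignant samples (14.3%, beside 2.87% of all genes), Cd22 (1.99). Cd79b was lower there on every array without passing (−1.49; limma, adjusted p = 0.0966), and Cd79a, Ms4a1 and Pax5 differed by 0.04, 0.05 and −0.06. In tumors 2 of the 7 fell (28.6%, beside 7.19% of all genes), Cd79b (−1.38; limma, adjusted p = 0.047) and Ighm (−0.89, adjusted p = 0.038). Each was called in 2 of 9 fits with 1 array left out, and neither with non-malignant arrays 2 and 3 averaged (adjusted p = 0.0687 and 0.0553). In tumors against non-malignant samples 1 of the 7 fell (14.3%, beside 2.7% of all genes), Cd22 (−1.56). Its call ended with non-malignant arrays 2 and 3 averaged (limma, adjusted p = 0.131). The summed level of the B cell genes was 12.48 to 12.8 in controls, 12.51 to 13.15 in the non-malignant samples and 11.44 to 12.27 in tumors. This sum followed Ighm, by far the brightest of them, with group means of 12.56, 12.61 and 11.67 in the same order. Of 9 myeloid genes tested, 0 were called by limma in the non-malignant samples or in tumors (2 and 3 higher at an unadjusted p under 0.05). Without tumor 1 there were 4 called higher in tumors and 1 in the non-malignant samples, and without tumor 2 there were 2 in the latter. Over all genes and both directions, calls with 1 array left out reached 4119 in tumors and 708 in the non-malignant samples, against 2084 and 469 in the main fit. S100a8 was at 4.76 to 6.07 in controls, 8 to 8.03 in the non-malignant samples and 4.96, 8.35 and 5.64 on tumor arrays 1, 2 and 3 (non-malignant samples minus controls 2.76, adjusted p = 0.0835). S100a9 was distributed alike (2.61, adjusted p = 0.117), at 4.71, 8.28 and 5.34 on the tumor arrays, so that both lay within the control range on tumor 1, where Gimap7 and Gimap3 were also low, and on tumor 3, where Gimap7 was at 9.86. The sum over 10 myeloid genes was 9.12 to 9.39 in controls, 9.98 to 10.04 in the non-malignant samples and 9.29 to 10.55 in tumors. Of 3 erythroid and 4 stromal or endothelial genes tested, 0 were called by limma in either group (of the erythroid genes 1 and 2 were higher at an unadjusted p under 0.05, of the others 0). Hba-a1 and Vwf lay below the 40th percentile on all 9 arrays. The sums were 8.15 to 8.27, 8.71 to 8.79 and 8.51 to 9.9 for the erythroid genes and 9.57 to 9.85, 9.68 to 9.8 and 9.76 to 10.37 for the stromal and endothelial genes, in the same order of groups.

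The 5 genes outside the family whose log2 levels were most like the mean profile of the 8 members over the 9 arrays were Phf11d (Pearson r = 0.978), Lyl1 (0.968), Nab2 (0.961), Ms4a6b (0.951) and Pdlim5 (0.951). The family profile, the mean of the members' levels each centred on its own mean, was −0.72 to −0.41 in controls, 0.37 to 0.56 in the non-malignant samples and −0.32, 0.38 and 0.19 on tumor arrays 1, 2 and 3. The 9 points fall into the same 3 groups, so the likeness is a description. The levels were not scaled, so members that vary widely, such as Gimap4 and Gimap7, weigh most in this profile. The members did not share it evenly: pairs of them correlated from −0.38 (Gimap4 and Gimap8) to 0.93 (Gimap3 and Gimap7). Ms4a6b, a membrane protein gene of T cells, was at 8.9 to 9.34 in controls, 10.04 to 10.57 in the non-malignant samples and 9.36, 10.39 and 10.5 in the tumors, with tumor 1 near the controls as for Gimap7. Nab2, which encodes a corepressor of EGR factors, was at 8 to 8.39, 9.33 to 9.43 and 8.32, 9.38 and 9.18 in the same order.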

How the data were processed

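Expression was measured on 9 Affymetrix arrays, 1 per sample. Values are deposited on a log scale for 45101 probe sets and are read here as log2 from their range of 2.68 to 14.57. How the authors summarised and normalized them is not given in the sources used here; per the labels' protocols, RNA was amplified to biotin-labelled cRNA. Exactly 1 gene symbol was given for 34958 probe sets, which map to 18162 genes. The 932 with several symbols and the 9147 with none were not used for genes. A gene is read from its brightest probe set by the mean over arrays. It entered the test when that probe set exceeded the 40th percentile on at least 3 arrays, which 13289 genes did. Group means were estimated from the 9 arrays in 1 limma model (limma 3.58.1, R 4.3.3) with a variance trend, and pairs of groups were contrasted two-sided. Residual degrees of freedom were 6, with 3.6 added by the prior. A call is a Benjamini-Hochberg adjusted p under 0.05 over all genes tested. The code was tested on simulated data. Tables were handled in Python 3.11.15 with pandas 2.3.3 and scipy 1.17.1. Precision is limited by the number of arrays. The text names all family members, up to 3 called genes per list ranked by adjusted p, the neighbours of the cluster and the 5 genes most like the family profile. The last were taken from tested genes, leaving out provisional symbols. Gabarapl2, Notch1, Myc, Eif2s3y, Cd3d, Cd3e, Cd3g and other listed genes that were not called were added after their values were seen. So were some called genes past the first 3 of a list, among them Foxo1, Rag1, Thy1, Cd4 and Cd8b1. Alternatives were quantile and median scaling, other filters, the mean of all probe sets, other variance models, a replicate block, array weights, fits of the compared pair alone, non-malignant arrays 2 and 3 averaged, and leaving out each array. The members, lists and settings were chosen with earlier results of these data known.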

Additional observations from a re-analysis of the deposited data

Results flagged for a closer look

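Gimap8 stood out because its change against controls differed between the abnormal non-malignant samples and the tumors. The change in tumors minus the change in the non-malignant samples was −1.96 on the log2 scale, tested directly as tumors against non-malignant samples (limma, adjusted p = 0.00491). All 3 non-malignant arrays lay above all 3 controls and all 3 tumor arrays below them.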

How the results depend on the processing

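The calls that stood in all 20 alternative settings were Gimap4 against controls in the non-malignant samples (2.17 to 2.45) and in tumors (3.04 to 3.47), and Gimap8 in tumors against non-malignant samples (−2.16 to −1.67). The call of Gimap8 against controls stood in 18 of 20, that of Gimap5 in the non-malignant samples in 13 and that of Gimap7 in tumors in 10. In the order non-malignant samples against controls, tumors against controls, tumors against non-malignant samples, the genes called were 469, 2084 and 562 and the members called 2, 3 and 1. With 1 array left out these counts ran from 205 to 708, 928 to 4119 and 53 to 3399, and from 1 to 4, 1 to 4 and 1 to 5. Array weights gave 2420, 4884 and 5699 genes and 7, 6 and 4 members. With only the 2 groups compared, 1121, 842 and 110 genes and, in the first pair of comparisons, 5 members and 1 member were called. With non-malignant arrays 2 and 3 averaged, 208 genes and 1 member passed in the first comparison and 66 genes in the last. Quantile normalization left 1 member in the first comparison, and a filter at the 60th percentile gave 2 in the last. Signs turned only in differences that were not called in the main fit. Gimap7 in tumors against non-malignant samples was 0.03 with quantile normalization, 0.06 with the mean of all probe sets and 0.51 with array weights, and it ran from −0.54 to 0.68 with 1 array left out, above 0 only without tumor 1. Gimap3 in the same comparison ran from −0.23 to 0.45 with 1 array left out, below 0 without non-malignant 1 (−0.05), tumor 2 (−0.23) or tumor 3 (−0.03). In tumors against controls, Gimap6 was −0.29 with the mean of all probe sets and ran from −0.01 (without control 3) to 0.72 with 1 array left out, and Gimap9 was 0.01 with array weights. The cause of these shifts was not tested. With the replicate number as a block, 399, 1918 and 292 genes and 2, 3 and 1 members passed. Deviations of same-numbered arrays correlated between −0.05 and 0.22, and those of differently numbered arrays between −0.26 and 0.21. With 3 arrays a group these values cannot settle whether the numbers pair the samples, and the labels do not say.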
